A study of Homo sapiens with 9 samples.

Results

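The genes described here are 10 components of the NF-kB pathway, picked by symbol out of the 26475 rows of a gene count table from MDA-MB-231 cells, a human breast adenocarcinoma line. They are the 5 Rel subunits NFKB1, NFKB2, REL, RELA and RELB, the 3 IkB genes NFKBIA, NFKBIE and NFKBIZ, and TNFAIP3 and BIRC3, which act on ubiquitin chains at receptor complexes. Every gene of the set had a row and passed the filter on low counts, with between 270 (REL) and 10268 (BIRC3) counts in a library. NF-kB is a family of dimeric transcription factors. In resting cells IkB proteins hold the dimers in the cytoplasm, and signals from cytokine and Toll-like receptors activate the IKK kinases, which mark IkB for destruction and release the dimers to the nucleus. Many of the inhibitors are themselves switched on by NF-kB, so that the pathway limits its own output. MDA-MB-231 is known for lasting NF-kB activity and for secreting inflammatory cytokines.

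The study compared 3 groups of 3 libraries, each library from a separate batch of cells, as the series describes it. Control cells stably carried the pLKO.1 lentiviral vector with no insert, knockdown cells carried pLKO.1 with a short hairpin RNA (shRNA) against ACSL4, and the PRGL493 group was control cells given PRGL493, an inhibitor of ACSL4. ACSL4 is an acyl-CoA synthetase that activates polyunsaturated fatty acids. All groups therefore share the transduced vector backbone, and the knockdown is a stable line population made with an unnamed hairpin. No dose, exposure time or vehicle is given for PRGL493, and no separate transduction is stated for any batch, so p-values measure the spread between these batches only.

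ACSL4 itself was at 339 to 366 CPM (counts scaled to the library total after TMM correction) in control cells and 333 to 360 CPM with PRGL493, against 23.7 to 29.5 CPM in knockdown cells, a 12.9-fold fall (log2 fold change -3.69, SE 0.07, adjusted p = 6e-16). Library totals ran from 28673940 to 43027217 counts. The markers fixed for the line, the keratins KRT8, KRT18 and KRT19 with VIM, CD44 and EGFR, summed to between 4110 and 4890 CPM in every library. The hormone receptor genes ESR1 and PGR had at most 1 and 6 counts, while ERBB2 was present at 2297 to 3982 counts. Among the leukocyte markers MS4A1 had no count, and PTPRC, CD3E and LYZ had at most 3, 1 and 14. The leukocyte list summed to 30.4 to 35.5 CPM in control, 38.7 to 46.7 in knockdown and 22.5 to 25.9 in PRGL493 libraries, nearly all of it from CD14 and CSF1R. The 6 endothelial and stromal markers summed to 27.9 to 29.9 CPM in control, 23.3 to 24.2 in knockdown and 18.7 to 20.8 in PRGL493 libraries, most of it from PDGFRB, while DCN and CDH5 had at most 3 and 7 counts. These sums moved with the groups, and their part in the results below was not tested. In bulk samples like these, fewer cells of a kind and less RNA per cell cannot be told apart.

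The 2 members that changed most went the same way under both treatments. NFKBIZ and TNFAIP3, of which the first encodes an atypical nuclear IkB and the second the ubiquitin-editing enzyme A20, were lower in knockdown and in PRGL493 cells than in control cells. The dimer-forming subunits RELA, RELB and NFKB1, the cytoplasmic inhibitors NFKBIA and NFKBIE and the ubiquitin ligase gene BIRC3 were higher with PRGL493 by 19.8% to 25.9%, whereas in knockdown cells NFKB2 and NFKB1 were lower and NFKBIA was higher. In knockdown against control 5 of 10 members passed the test (edgeR quasi-likelihood, Benjamini-Hochberg adjusted p below 0.05), 1 higher and 4 lower, where 30.1% of the 14135 genes tested were called, 14.7% higher and 15.3% lower. In PRGL493 against control 8 of 10 passed, 6 higher and 2 lower, where 41.8% of all genes were called, 21.4% higher and 20.4% lower. The median log2 fold change of the members was -0.10 in knockdown and 0.31 with PRGL493, and that of all genes tested was 0.00 and 0.01. Both sets of changes were measured against the same 3 control libraries, so a state of those libraries cannot be told apart from a response common to both treatments.

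The stretch of DNA just before a start site is shown for NFKBIZ, TNFAIP3, NFKBIA and BIRC3, which carry matches to the kB site that NF-kB dimers bind. They were picked with their changes known. NFKB1, NFKB2 and REL held matches too and are not shown. Whether such sites bear on the direction of change was not tested. Each stretch is the 250 bases before a RefSeq start on GRCh38.p14, read 5′ to 3′ on the gene's strand. Matches to the consensus kB site on either strand are in capitals.
NFKBIZ, upstream start: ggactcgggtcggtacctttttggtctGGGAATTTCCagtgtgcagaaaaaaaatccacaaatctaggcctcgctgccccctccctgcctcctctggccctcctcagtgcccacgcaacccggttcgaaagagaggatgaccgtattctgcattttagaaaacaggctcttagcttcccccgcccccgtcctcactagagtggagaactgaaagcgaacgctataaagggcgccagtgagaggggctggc
NFKBIZ, downstream start: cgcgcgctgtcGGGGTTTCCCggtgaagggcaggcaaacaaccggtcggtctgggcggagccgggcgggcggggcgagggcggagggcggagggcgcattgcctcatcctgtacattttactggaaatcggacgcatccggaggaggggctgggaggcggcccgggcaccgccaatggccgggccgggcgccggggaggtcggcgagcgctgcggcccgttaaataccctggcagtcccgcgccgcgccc
TNFAIP3: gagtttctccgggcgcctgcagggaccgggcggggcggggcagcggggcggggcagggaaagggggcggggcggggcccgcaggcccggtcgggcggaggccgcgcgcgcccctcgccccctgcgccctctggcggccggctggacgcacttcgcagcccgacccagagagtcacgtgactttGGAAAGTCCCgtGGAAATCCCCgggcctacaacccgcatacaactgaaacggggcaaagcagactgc
NFKBIA: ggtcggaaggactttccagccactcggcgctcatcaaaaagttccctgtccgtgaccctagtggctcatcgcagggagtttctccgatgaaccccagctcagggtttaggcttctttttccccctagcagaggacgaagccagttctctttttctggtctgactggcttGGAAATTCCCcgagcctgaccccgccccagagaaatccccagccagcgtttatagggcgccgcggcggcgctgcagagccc
BIRC3: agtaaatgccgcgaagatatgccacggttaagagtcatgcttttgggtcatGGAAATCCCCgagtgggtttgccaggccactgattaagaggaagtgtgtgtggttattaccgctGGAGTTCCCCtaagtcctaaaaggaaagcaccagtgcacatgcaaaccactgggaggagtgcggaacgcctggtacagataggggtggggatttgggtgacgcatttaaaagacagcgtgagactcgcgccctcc
The NFKBIZ windows lie at chr3:101827740-101827989 and chr3:101849264-101849513 on the plus strand, and those of TNFAIP3 and BIRC3 at chr6:137867009-137867258 and chr11:102317234-102317483, also on the plus strand. The NFKBIA window lies at chr14:35404750-35404999 on the minus strand.

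RefSeq windows were found for 8 of the 10 members, 13 windows in all, since some genes have several starts. RELB and NFKBIE had none. The consensus kB site was matched in 9 of these 13 windows and in 7 of the 8 genes, RELA being the gene without a match, against 5.21% of all 35116 RefSeq windows of the same length. A looser form, in which GGG and CC begin and end a run of 10 bases with any letters between them and of which every consensus match is a part, was matched in 12 of the 13 windows and in 54.43% of all windows. TNFAIP3 held a pair of consensus matches 2 bases apart, at positions -67 to -58 and -55 to -46 from the start. In NFKBIA the match lay at -81 to -72, in the upstream NFKBIZ window at -223 to -214, and in the downstream NFKBIZ window at -239 to -230. BIRC3 had matches at -199 to -190 and -135 to -126. The AP-1 motif TGANTCA (6.57% of all windows), the cyclic AMP response element TGACGTCA (1.65%) and the CArG box bound by serum response factor (1.16%) were not matched in any member window on either strand. A match describes the letters only and says nothing about binding in these cells.

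**Figure D1:**
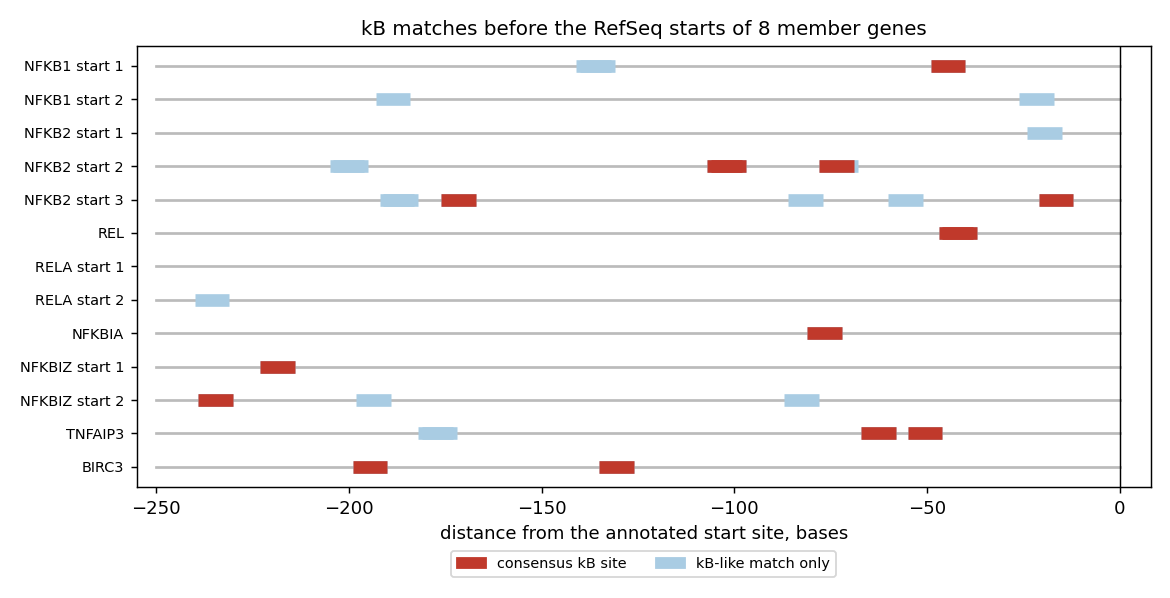
Positions of kB matches in the 250 bases before each RefSeq start of 8 member genes, with distance from the start in bases on the x axis and 1 line per window. Red blocks are consensus kB sites and pale blocks matches to the looser form alone. Consensus sites appear in 9 of the 13 windows, and TNFAIP3 carries an adjacent pair between -67 and -46.

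Levels can be compared between genes only per length, so CPM was divided by the length of all exons in the GENCODE 29 basic annotation. In control cells NFKBIZ had the highest level of the 10, at 74.4 ± 0.541 CPM per kb (SD, n = 3), followed by NFKBIA at 53.2 ± 3.79, NFKB2 at 41.7 ± 1.28 and RELA at 37.6 ± 1.42 CPM per kb. BIRC3 came next at 27.5 ± 2.05 CPM per kb. NFKBIE and RELB shared a mean of 16.6 CPM per kb and their libraries overlapped. TNFAIP3 (10.9 ± 0.545) and NFKB1 (9.64 ± 0.455 CPM per kb) were close but did not overlap, and REL was far below at 1.07 ± 0.131 CPM per kb. In knockdown cells NFKBIZ dropped from rank 1 to rank 7 at 12 ± 0.496 CPM per kb, and with PRGL493 to rank 5 at 22.7 ± 0.746 CPM per kb, where its lowest library equalled the highest of NFKBIE at 22.2 CPM per kb. NFKBIA then led with 60.7 ± 4.16 CPM per kb in knockdown and 63.7 ± 1.79 in PRGL493 cells. RELA passed NFKB2 in both, with 36.6 ± 1.08 against 34.0 ± 1.63 CPM per kb in knockdown and 47.2 ± 2.21 against 40.4 ± 0.919 CPM per kb with PRGL493. BIRC3 overlapped NFKB2 in knockdown cells, and NFKBIE and RELB overlapped in every group.

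NFKBIZ encodes IkB-zeta, a nuclear protein that works as a cofactor of NF-kB on secondary response genes such as IL6 and is itself an early induced gene. The gene lies on chromosome 3 from 101827991 to 101861022 (GRCh38, plus strand). Control cells had 309, 313 and 314 CPM of NFKBIZ, PRGL493-treated cells 94.1, 98.8 and 92.9 CPM, and knockdown cells 51.9, 47.9 and 50.9 CPM. The 3 groups were fully separate, with control highest, PRGL493 between and knockdown lowest. Knockdown lowered NFKBIZ by 6.21-fold (log2 fold change -2.63, SE 0.05, adjusted p = 6e-16). For PRGL493 the figure was 3.28-fold (log2 -1.71, SE 0.05, adjusted p = 1.4e-13). The difference between the treatments passed the test on its own, NFKBIZ being 1.90-fold lower in knockdown (log2 -0.92, SE 0.05, adjusted p = 4.5e-10).

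The makeup of the IkB transcript pool differed between the groups. Among the 6 IkB family genes (NFKBIA, NFKBIE, NFKBIZ, NFKBIB, NFKBID and BCL3), NFKBIZ made up 43.5% ± 1.38 of the summed CPM per kb in control cells, 9.69% ± 0.784 in knockdown cells and 16.6% ± 0.73 in PRGL493 cells (SD, n = 3). NFKBIA went from 31.0% ± 1.44 to 48.9% ± 1.29 and 46.5% ± 0.42, which made it the leading IkB transcript under both treatments. The share of BCL3, a nuclear IkB that partners the subunits made from NFKB1 and NFKB2, was 10.3% ± 0.28 in control, 20% ± 1.18 in knockdown and 15% ± 0.13 in PRGL493 cells. The summed level of the 6 genes was 171 ± 4.44 CPM per kb in control, 124 ± 5.48 in knockdown and 137 ± 3.23 in PRGL493 cells. Shares within a pool are tied to each other, so a rise in one may come from the fall of another, and they were not tested.

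**Figure D2:**
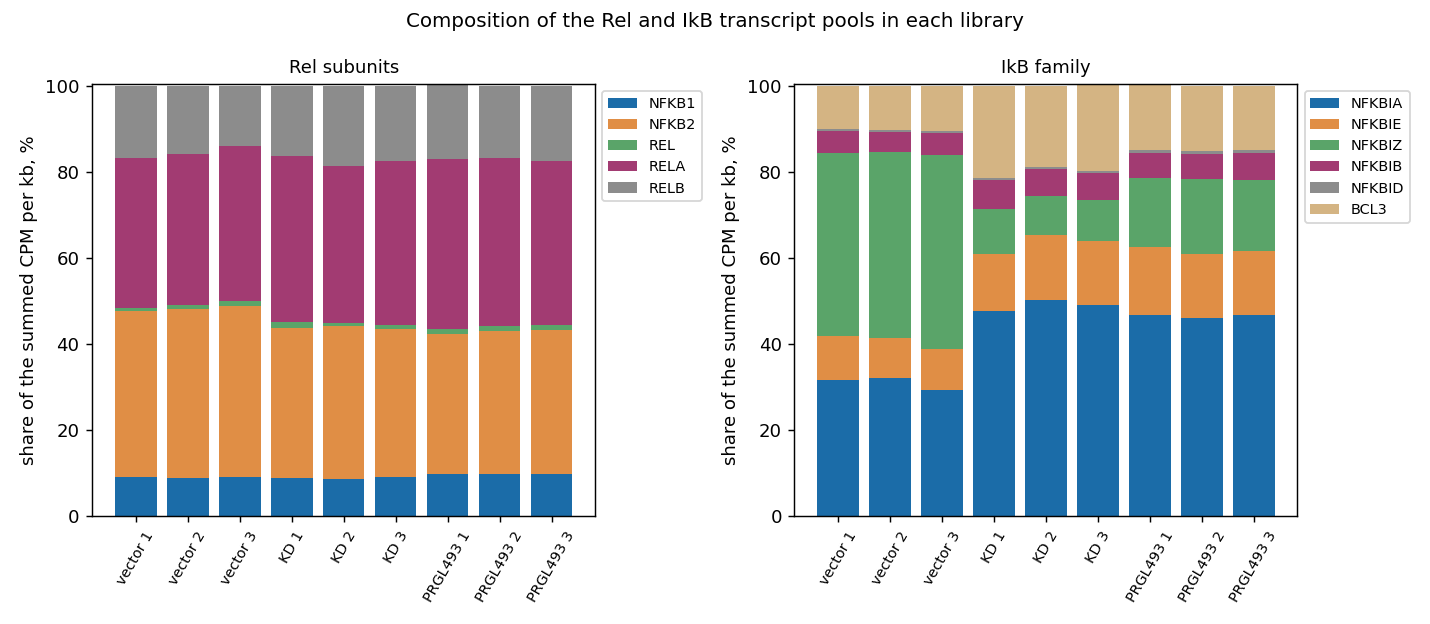
Share of each gene in the summed CPM per kb of the 5 Rel subunits (left) and of the 6 IkB family genes (right), in percent on the y axis, with 1 bar per library. In the right panel NFKBIZ fills between 42.4% and 45.1% of the control bars, between 8.96% and 10.5% of the knockdown bars and between 16.0% and 17.4% of the PRGL493 bars.

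NFKBIA encodes IkB-alpha, the inhibitor that is degraded and made anew in each round of NF-kB activation. NFKBIA stood at 105, 106 and 92.7 CPM in control cells, 107, 122 and 118 CPM in knockdown cells and 125, 119 and 120 CPM in treated cells. The control libraries lay below all others, the nearest pair being 106 and 107 CPM. NFKBIA rose by 19.8% under PRGL493 (log2 fold change 0.26, SE 0.06, adjusted p = 0.0032) and by 14.2% in knockdown (log2 0.19, SE 0.06, adjusted p = 0.029). The knockdown call was lost without control replicate 3 (log2 0.13, adjusted p = 0.17), without knockdown replicate 3 (0.18, adjusted p = 0.095) and when only the 6 libraries compared were fitted (adjusted p = 0.054). The difference between knockdown and PRGL493 did not pass (log2 -0.07, SE 0.06, adjusted p = 0.37).

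NFKBIE encodes IkB-epsilon, a slower acting cytoplasmic inhibitor. It was at 45.7, 42.2 and 40.6 CPM in control, 40.7, 50.1 and 48.7 CPM in knockdown and 57.4, 52.5 and 51.8 CPM in PRGL493 libraries. The PRGL493 libraries stood above all others, while knockdown and control overlapped. NFKBIE rose by 25.9% under PRGL493 (log2 fold change 0.33, SE 0.08, adjusted p = 0.0024), and its difference in knockdown did not pass the test (log2 0.12, SE 0.08, adjusted p = 0.27). Without knockdown replicate 1 it did (log2 0.21, adjusted p = 0.022).

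TNFAIP3 encodes A20, which edits ubiquitin chains on RIPK1 and other adaptors and ends signalling from the TNF receptor. The gene lies on chromosome 6 from 137867188 to 137883312 (plus strand). Control cells had 52.4, 54 and 48.9 CPM of TNFAIP3, knockdown cells 27, 24 and 24.3 CPM, and PRGL493-treated cells 23, 23.4 and 21.5 CPM. All 6 of the knockdown and PRGL493 libraries were far below the lowest control library. TNFAIP3 fell by 51.5% in knockdown (log2 fold change -1.04, SE 0.07, adjusted p = 4.7e-09) and by 56.3% with PRGL493 (log2 -1.19, SE 0.07, adjusted p = 6.8e-10). Set against each other, the treatments missed the threshold for TNFAIP3 (log2 0.15, SE 0.07, adjusted p = 0.081). The difference passed with upper-quartile factors (0.21, adjusted p = 0.019), with genes of at least 1 CPM in 3 libraries (0.17, adjusted p = 0.049) and without knockdown replicate 2 (0.18, adjusted p = 0.03).

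BIRC3 encodes cIAP2, a ubiquitin ligase that promotes survival signals from TNF receptors and restrains the kinase NIK. It stood at 181, 183 and 206 CPM in control, 234, 183 and 206 CPM in knockdown and 225, 227 and 262 CPM in PRGL493 libraries. Knockdown and control overlapped, and the PRGL493 libraries lay above the control libraries. BIRC3 rose by 25.3% under PRGL493 (log2 fold change 0.33, SE 0.09, adjusted p = 0.011), a call that was lost without PRGL493 replicate 3 (log2 0.24, adjusted p = 0.05). Its difference in knockdown did not pass (log2 0.13, SE 0.09, adjusted p = 0.3).

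**Figure D3:**
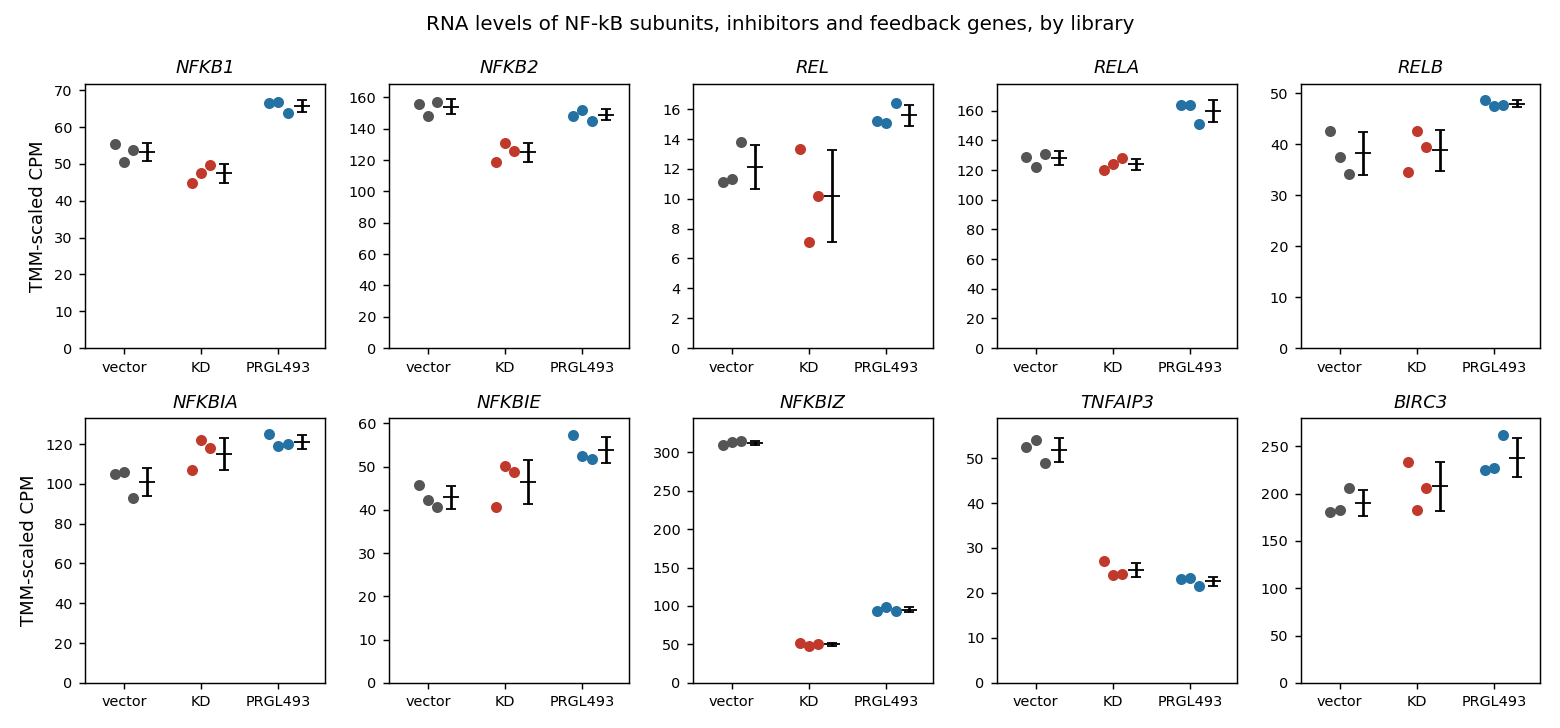
TMM-scaled CPM (y axis, starting at 0) of the 10 genes in each library, with 3 points per group for empty-vector control (vector), ACSL4 knockdown (KD) and PRGL493, and the mean ± SD in black. NFKBIZ and TNFAIP3 drop in both treated groups, to 50.2 and 95.3 CPM from 312 and to 25.1 and 22.6 CPM from 51.8, while RELA and NFKB1 stand highest with PRGL493.

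Among the Rel subunits RELA, or p65, carries a strong transactivation domain and pairs with p50, the product of NFKB1, in the classical dimer. RELA was at 129, 122 and 131 CPM in control, 120, 124 and 128 CPM in knockdown and 164, 164 and 151 CPM in PRGL493 libraries. Only the PRGL493 libraries were set apart. RELA rose by 25.4% under PRGL493 (log2 fold change 0.33, SE 0.05, adjusted p = 0.00012) and differed in knockdown by less than the spread between libraries (log2 -0.04, SE 0.05, adjusted p = 0.61). NFKB1 was at 55.3, 50.4 and 53.9 CPM in control, 44.9, 47.5 and 49.8 CPM in knockdown and 66.4, 66.7 and 63.9 CPM in PRGL493 libraries. Its groups were fully separate, with knockdown lowest and PRGL493 highest. The rise with PRGL493 was 23.4% (log2 0.30, SE 0.06, adjusted p = 0.00059). In knockdown NFKB1 fell by 10.9% (log2 -0.17, SE 0.06, adjusted p = 0.042), a call close to the threshold that was lost in 10 of 16 alternatives. It was lost without control replicate 1 (adjusted p = 0.16), control replicate 3 (0.12), knockdown replicate 1 (0.12), PRGL493 replicate 1 (0.063) or PRGL493 replicate 2 (0.062). The NFKB1 call was also lost with upper-quartile factors (0.1), library totals alone (0.095), no filter on low counts (0.058) or only the 6 libraries compared (0.075), and in a fit with the replicate number as a block (0.073).

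RELB and NFKB2, whose product is processed to p52, form the dimer of the alternative pathway driven by NIK. RELB was at 42.7, 37.6 and 34.2 CPM in control, 34.6, 42.6 and 39.4 CPM in knockdown and 48.7, 47.6 and 47.7 CPM in PRGL493 libraries. Control and knockdown were interleaved (log2 fold change 0.02, SE 0.08, adjusted p = 0.86), and RELB rose by 25.8% with PRGL493 (log2 0.33, SE 0.08, adjusted p = 0.004). NFKB2, on the other hand, was at 156, 148 and 157 CPM in control, 119, 131 and 126 CPM in knockdown and 148, 152 and 145 CPM in PRGL493 libraries. Here the knockdown libraries stood apart below the rest. NFKB2 fell by 18.6% in knockdown (log2 -0.30, SE 0.05, adjusted p = 0.00041) and did not pass with PRGL493 (log2 -0.05, SE 0.05, adjusted p = 0.48). The knockdown fall of NFKB2 passed the test in each of the 16 alternatives.

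REL, or c-Rel, is best known from lymphocytes and was the scarcest member. It was at 11.1, 11.3 and 13.8 CPM in control, 13.3, 7.12 and 10.2 CPM in knockdown and 15.2, 15.1 and 16.4 CPM in PRGL493 libraries. Of the knockdown libraries 2 were below the control range and 1 was inside it, and the PRGL493 libraries lay above both groups. Neither the knockdown difference (log2 fold change -0.24, SE 0.19, adjusted p = 0.39) nor the PRGL493 difference (log2 0.37, SE 0.19, adjusted p = 0.14) passed the test. With PRGL493 it passed without knockdown replicate 1 (adjusted p = 0.02), without knockdown replicate 2 (0.0024) and with only the 6 libraries compared (0.00094), and in knockdown it passed without knockdown replicate 1 (log2 -0.47, adjusted p = 0.014). An annotated noncoding transcript, AC010733.2, shares 5702 bases of exon with REL on the same strand, so reads of the pair may be mixed and the level of REL is uncertain.

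Knockdown replicate 2 differed from the other libraries in a way tied to transcript length. In this library genes with exon lengths up to 2.34 kb deviated from their 9-library mean by a median of 0.17 (log2 CPM), and genes of at least 5.66 kb by -0.16. In the other 8 libraries these medians lay between -0.07 and 0.06. Among the members, REL (11.26 kb) and BIRC3 (6.91 kb) had their lowest knockdown value in this library, and NFKBIA (1.90 kb) and RELB (2.30 kb) their highest. Without it the knockdown log2 fold changes were -0.04 for REL, 0.21 for BIRC3 (adjusted p = 0.077), 0.15 for NFKBIA (adjusted p = 0.046) and -0.05 for RELB (adjusted p = 0.68), and those of NFKBIZ and TNFAIP3 were -2.60 and -1.01.

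Per length, RELA and NFKB2 together gave most of the Rel pool in every group, with RELA at 35.3% ± 0.752 and NFKB2 at 39.1% ± 0.628 of the summed CPM per kb in control cells (SD, n = 3). NFKB2 was at 35.0% ± 0.529 in knockdown and 33.2% ± 0.456 in PRGL493 cells, and RELA at 37.8% ± 1.01 and 38.8% ± 0.787. REL contributed 1.01% ± 0.124 in control cells. The sum of the 5 subunits was 107 ± 3.68 CPM per kb in control, 97.0 ± 4.2 in knockdown and 122 ± 3.3 in PRGL493 cells, and no library of one group reached another group's range.

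Knockdown and PRGL493 were also set against each other as a direct test of where the genetic and the chemical treatment differ. The fold changes of this contrast take no control level, although the control libraries enter its filter, scaling and estimate of spread. All 5 Rel subunits were lower in knockdown than with PRGL493, as were NFKBIE and NFKBIZ, so that 7 of 10 members were called lower and 0 higher. In this comparison 50.4% of all genes were called, 24.4% higher and 26% lower, and the members' median log2 fold change was -0.28 beside -0.01 for all genes. NFKB1 differed by 1.39-fold (log2 -0.47, SE 0.06, adjusted p = 5.6e-06), RELA by 1.29-fold (log2 -0.37, SE 0.05, adjusted p = 2.5e-05) and RELB by 1.24-fold (log2 -0.31, SE 0.08, adjusted p = 0.0049). For NFKB2 the difference was 1.19-fold (log2 -0.25, SE 0.05, adjusted p = 0.00074). These 4 passed in each of the 16 alternatives. REL (log2 -0.60, SE 0.18, adjusted p = 0.021) lost its call without knockdown replicate 3 (adjusted p = 0.054), without PRGL493 replicate 1, 2 or 3 (0.059, 0.056 and 0.067) and with no filter on low counts (0.06). NFKBIE (log2 -0.22, SE 0.08, adjusted p = 0.026) lost it without knockdown replicate 1 (0.14), without PRGL493 replicate 1 or 2 (0.15 and 0.052) and with upper-quartile factors (0.097). BIRC3 (log2 -0.20, SE 0.09, adjusted p = 0.087) passed without knockdown replicate 1 (-0.28, adjusted p = 0.01).

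**Figure D4:**
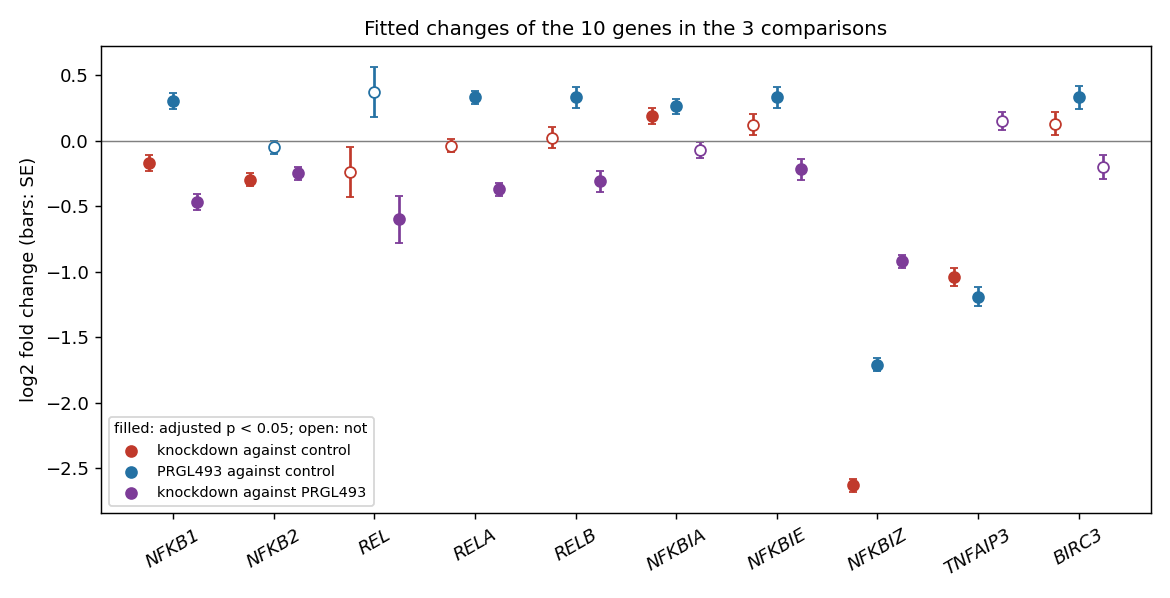
Log2 fold change of the 10 genes (y axis, bars are SE) for each treatment relative to control cells and for knockdown relative to PRGL493. Filled points have an adjusted p below 0.05. NFKBIZ and TNFAIP3 are the only members beyond 1 on this scale, and the 5 subunits lie between -0.25 and -0.60 in knockdown against PRGL493.

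For NFKBIZ and TNFAIP3 the genes with the most similar course over the 9 libraries were looked up among 10759 tested genes with an established symbol and a mean log2 CPM of at least 2, by the root mean square difference of centred log2 CPM. Nearest to NFKBIZ were SGK1, a kinase related to AKT (difference 0.11), ATF3, a stress-induced transcription factor (0.15), and CSRNP1, a nuclear protein (0.18). SGK1 had log2 fold changes of -2.72 in knockdown and -1.61 with PRGL493, close to the -2.63 and -1.71 of NFKBIZ. Nearest to TNFAIP3 were AKAP12, a kinase scaffold (difference 0.09), STC1, a secreted glycoprotein (0.09), and HBEGF, a ligand of the EGF receptor (0.10). HBEGF had log2 fold changes of -1.22 and -1.24. These describe 9 libraries that share 3 groups.

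Around the members, 99 other genes of the pathway were followed in 7 lists, of which 91 passed the filter on low counts. In knockdown 13 were higher and 32 lower, and with PRGL493 20 were higher and 35 lower. These called genes made up 49.5% of those tested in knockdown and 60.4% with PRGL493, beside 30.1% and 41.8% of all genes. Whether the shares differ was not tested. Their median log2 fold changes over all 91 were -0.09 and -0.05, beside 0.00 and 0.01 over all genes tested.

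Of 11 ligands that start the pathway only 6 were tested, since TNF had at most 12 counts in a library, LTA 3 and IL33 1, and TNFSF11 and CD40LG had none. With PRGL493 0 of the 6 were higher and 5 lower, with a median log2 fold change of -0.74. In knockdown 3 were higher and 2 lower (median 0.03). The called share was 83.3% for each treatment, beside 41.8% of all genes with PRGL493 and 30.1% in knockdown. IL1A, an alarmin that signals through IL1R1, was at 377, 399 and 405 CPM in control, 336, 360 and 327 CPM in knockdown and 91.9, 90.6 and 94.6 CPM in PRGL493 libraries. It fell in both, with log2 fold changes of -0.21 (SE 0.05, adjusted p = 0.0053) in knockdown and -2.09 (SE 0.05, adjusted p = 5.8e-14) with PRGL493. IL1B went from 171 ± 6.31 CPM to 76.4 ± 4.49 in knockdown and 78.6 ± 3.15 with PRGL493 (log2 -1.16 and -1.12), and the difference between the treatments did not pass (log2 -0.04, SE 0.06, adjusted p = 0.56). LTB, a ligand of the alternative pathway, was low, at 2.91 ± 0.25 CPM in control, 4.14 ± 0.806 in knockdown and 0.669 ± 0.174 with PRGL493 (PRGL493 against control, log2 -2.10, SE 0.22, adjusted p = 1.1e-06). TNFSF10, or TRAIL, rose in knockdown (log2 0.33, adjusted p = 0.0003) and fell with PRGL493 (log2 -0.16, adjusted p = 0.027). IL18, an IL-1 family cytokine, fell with PRGL493 (log2 -0.35, adjusted p = 0.0049). Its higher level in knockdown (log2 0.26, adjusted p = 0.032) lost the call without control replicate 1, 2 or 3 (adjusted p = 0.11, 0.06 and 0.083) or knockdown replicate 2 (0.053).

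Receptors moved both ways. Of 12 tested, 2 rose and 4 fell in knockdown (median log2 fold change -0.02), and 3 rose and 5 fell with PRGL493 (median 0.00). The called shares were 50% and 66.7%, beside 30.1% and 41.8% of all genes. TNFRSF1B, the second TNF receptor, was at 55.3 ± 1.27 CPM in control, 57.1 ± 3.44 in knockdown and 31.9 ± 0.535 with PRGL493, a fall with the inhibitor (log2 -0.79, SE 0.06, adjusted p = 2.7e-08) and not passing in knockdown (log2 0.05, adjusted p = 0.58). The treatments differed directly (log2 0.84, SE 0.06, adjusted p = 8.8e-09). TNFRSF1A, the main TNF receptor, rose with PRGL493 (log2 0.38, adjusted p = 8.4e-05). TNFRSF10B, a death receptor for TRAIL, fell in both (log2 -0.46 and -0.53). IL1RAP, the shared chain of the IL-1 receptors, fell with PRGL493 (log2 -0.60, adjusted p = 5.5e-07) and less in knockdown (log2 -0.18, adjusted p = 0.024). In knockdown IL1R1, the IL-1 receptor, and TLR2, a receptor for bacterial lipoproteins, rose (log2 0.35 and 0.30). TLR4, the endotoxin receptor, fell in knockdown (log2 -0.44). IL1R1 rose with PRGL493 too (log2 0.33, adjusted p = 0.001), while TLR2 and TLR4 did not pass there (log2 0.07 and 0.12).

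Between receptor and IkB, of 18 adaptors 9 rose and 3 fell with PRGL493 (median log2 fold change 0.21), a called share of 66.7% beside 41.8% of all genes. In knockdown 2 adaptors rose and 4 fell (median 0.00), a called share of 33.3% that is near the 30.1% of all genes. RIPK1, the kinase scaffold that A20 acts on, was at 48.8, 51.9 and 51.9 CPM in control, 50.7, 52.6 and 49.7 CPM in knockdown and 82.8, 81.7 and 78.3 CPM in PRGL493 libraries. It rose with PRGL493 (log2 0.67, SE 0.05, adjusted p = 7.1e-08) and did not pass in knockdown (log2 0.00, SE 0.06, adjusted p = 0.97). MYD88, the adaptor of the IL-1 and Toll-like receptors, had log2 fold changes of 0.48 (adjusted p = 2.3e-06) with PRGL493 and -0.12 (adjusted p = 0.091) in knockdown. TRAF2, which recruits the cIAP proteins, rose in both (log2 0.59 and 0.56). IRAK1, a kinase that acts with MYD88, fell with PRGL493 (log2 -0.41, adjusted p = 1.4e-05) and less in knockdown (log2 -0.18, adjusted p = 0.019). In knockdown BCL10, a scaffold of the CARD-MALT1 complex, and XIAP, an inhibitor of caspases, fell (log2 -0.45 and -0.59). TRAF1, a partner of TRAF2, rose in both (log2 0.32 and 0.30). With PRGL493 BCL10 fell less (log2 -0.18, adjusted p = 0.015), and XIAP did not pass (log2 0.02). Of 10 genes for the IKK complex and its upstream kinases 2 rose and 0 fell with PRGL493 (median 0.07), a called share of 20% beside 41.8% of all genes. In knockdown 1 rose and 4 fell (median -0.09), or 50% beside 30.1%. IKBKG, the regulatory subunit of IKK, went from 26.4 ± 2.59 CPM to 40.8 ± 1.58 with PRGL493 (log2 0.63, SE 0.08, adjusted p = 7.3e-06) and to 21.2 ± 1.63 in knockdown (log2 -0.32, SE 0.08, adjusted p = 0.0065, and 0.051 without control replicate 1). IKBKG has a near-identical pseudogene copy, so its level is uncertain. IKBKB, the catalytic IKK-beta, rose with PRGL493 (log2 0.22, adjusted p = 0.0033), and TAB3, an adaptor of the kinase TAK1, fell in knockdown (log2 -0.43, adjusted p = 0.001). Also in knockdown, TAB2 fell (log2 -0.20, adjusted p = 0.013, and 0.057 without control replicate 2). MAP3K14, or NIK, rose (log2 0.20, adjusted p = 0.021, but 0.061 and 0.095 without control replicate 2 or 3). The falls of TAB3, TAB2 and XIAP, and that of the receptor TLR4, were deepest in knockdown replicate 2, the library that deviated with transcript length. Without it their log2 fold changes were smaller, at -0.32, -0.15, -0.50 and -0.35, and all still passed the test. IKBKG fell further without it (log2 -0.37).

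Among other brakes on the pathway, of 15 tested 0 rose and 1 fell in knockdown (median log2 fold change -0.04), and 3 rose and 4 fell with PRGL493 (median -0.02). The called share was 6.67% in knockdown, beside 30.1% of all genes. With PRGL493 it was 46.7%, near the 41.8% of all genes. The brake that fell in knockdown was ZC3H12A, or Regnase-1, an RNase that degrades cytokine and NFKBIZ transcripts. It was at 133, 131 and 140 CPM in control, 64.3, 68.4 and 66.5 CPM in knockdown and 86.6, 85.4 and 80.7 CPM in PRGL493 libraries (log2 -1.02, SE 0.05, adjusted p = 3e-10, and log2 -0.68, SE 0.05, adjusted p = 4.4e-08). Its groups lay in the same order as those of NFKBIZ, control highest and knockdown lowest. With PRGL493 the deubiquitinase OTUD7B and the A20 partner TNIP1 rose (log2 0.36 and 0.21), and RNF11, which also works with A20, fell (log2 -0.27). Of the remaining IkB genes BCL3 rose, from 35.8 ± 0.6 CPM to 50.4 ± 1.12 in knockdown (log2 0.49, SE 0.05, adjusted p = 4.8e-06) and 41.9 ± 0.964 with PRGL493 (log2 0.23, SE 0.06, adjusted p = 0.0036), while NFKBIB and NFKBID did not pass in either.

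Of 30 genes described in textbooks as NF-kB targets 27 were tested, and 17 fell, 4 rose and 6 did not pass in knockdown (median log2 fold change -0.38). With PRGL493 18 fell, 2 rose and 7 did not pass (median -0.59). The called shares were 77.8% in knockdown and 74.1% with PRGL493, beside 30.1% and 41.8% of all genes. The 4 that rose in knockdown were PTX3, VCAM1, CFLAR and TNFAIP2, and CFLAR, which restrains caspase-8, and TNFAIP2 rose with PRGL493 too. CFLAR and TNFAIP2 were picked out after their values were seen. This list was drawn up with earlier results of these samples known and is not independent evidence of direction. CXCL2, a neutrophil chemokine, was at 203 ± 2.31 CPM in control, 61.7 ± 3.21 in knockdown and 58.2 ± 0.759 with PRGL493. IL6, a cytokine, fell in both (log2 -1.41 and -1.28), as did GADD45B, a stress response gene (log2 -1.16 and -0.87). CSF2, or GM-CSF, fell in knockdown (log2 -0.84, adjusted p = 8.2e-07) and further with PRGL493 (log2 -1.69). NUAK2, an AMPK-related kinase, was at 22.5 ± 0.593, 6.64 ± 1.09 and 4.38 ± 0.756 CPM. Some targets differed between the treatments. CSF2 was higher in knockdown than with PRGL493 (log2 0.85, adjusted p = 5e-07). ICAM1, an adhesion molecule for leukocytes, was at 586 ± 16.9 CPM in control, 575 ± 33.9 in knockdown and 368 ± 6.39 with PRGL493 (knockdown against PRGL493, log2 0.64, SE 0.05, adjusted p = 3.9e-08). PTX3, a soluble pattern recognition protein, was at 52.2 ± 3.42 CPM in control, 82.7 ± 3.97 in knockdown and 24.8 ± 3.15 with PRGL493, on either side of the control level (knockdown against PRGL493, log2 1.73, SE 0.08, adjusted p = 5.2e-11). VCAM1, an adhesion molecule, showed the same order at 5.86 ± 0.456, 8.81 ± 0.805 and 3.98 ± 0.553 CPM (log2 1.15, SE 0.12, adjusted p = 7.4e-07).

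Of the same lists, other genes with the smallest adjusted p in knockdown against PRGL493 lay on both sides. Lower in knockdown were IKBKG (log2 -0.94), RIPK1 (-0.67), MYD88 (-0.61), TAB3 (-0.60), TLR4 (-0.56), OTUD7B (-0.40) and TRAF3 (-0.37). So were TBK1 (-0.34), ZC3H12A (-0.34), TNIP1 (-0.30), TNFRSF1A (-0.29), OTULIN (-0.24) and IKBKB (-0.22). Higher were LTB (log2 2.61), IL1A (1.88), IL18 (0.61), TNFSF10 (0.49), IL1RAP (0.41), RBCK1 (0.38) and BCL3 (0.27). NFKBID was lower as well (log2 -0.68, adjusted p = 0.02), but not without knockdown replicate 2 (adjusted p = 0.068) or PRGL493 replicate 1 or 2 (0.09 and 0.051).

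**Figure D5:**
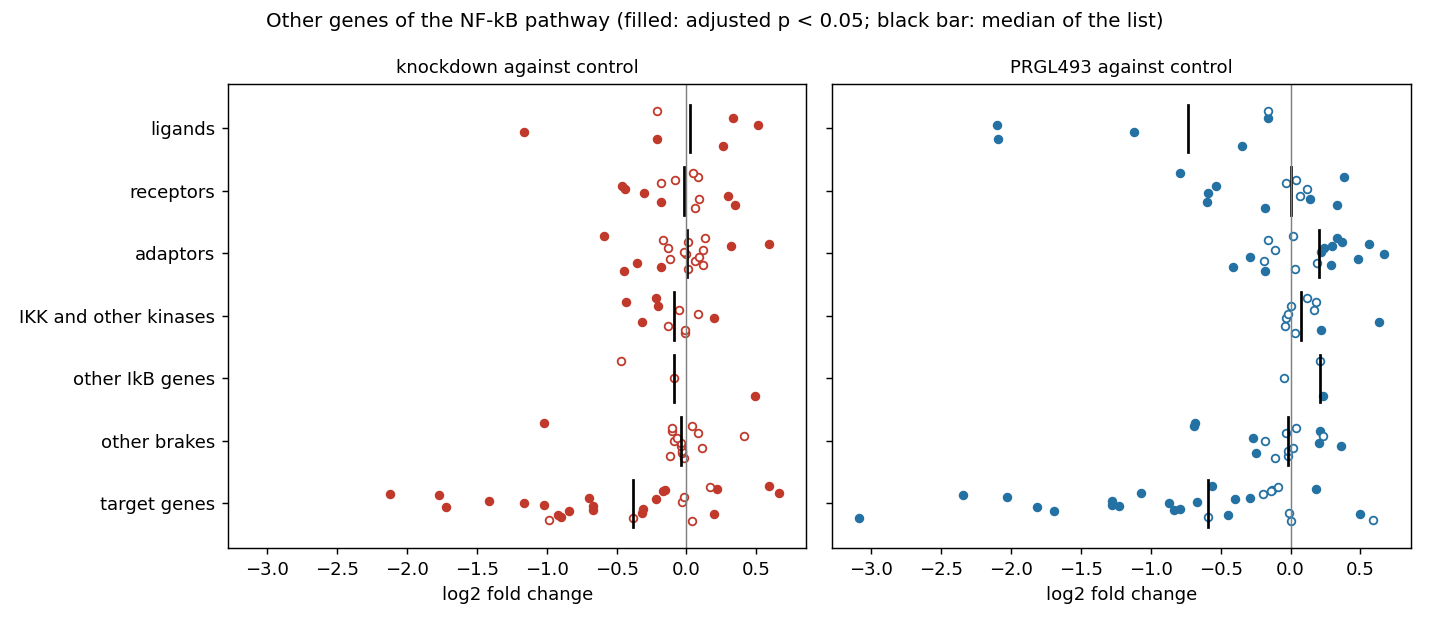
Log2 fold changes (x axis) of the 91 tested pathway genes outside the member set, by list, in knockdown against control (left) and PRGL493 against control (right). Filled points have an adjusted p below 0.05 and black bars are list medians, which lie at -0.38 and -0.59 for target genes and at 0.00 and 0.21 for adaptors.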

How the data were processed

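RNA-seq of 9 MDA-MB-231 libraries was analysed, 3 per group by sample title. The authors deposited 1 table of estimated counts per gene symbol, not scaled for depth, in which 10.5% of the values were not whole. Per the submitters' processing notes the genome build was GRCh38. Which aligner, counter, annotation and strand setting gave the counts is not given in the sources used here, so counts of overlapping genes and near-identical copies are uncertain. The design assumed whole counts, so the values were rounded and the test was kept.

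Genes were filtered with filterByExpr (14135 of 26475 rows; 6932 rows held no read), scaled with TMM, and fitted in edgeR 4.0.16 (R 4.3.3; glmQLFit, robust) over all 9 libraries with group as the only term and 6 residual degrees of freedom. Every adjusted p is from edgeR's quasi-likelihood test, with Benjamini-Hochberg adjustment across the 14135 genes, and genes below 0.05 were called. SE is that implied by the test. CPM values are TMM-scaled. The code was tested on simulated data. Depth gave each member at least 270 counts per library. Precision is limited by the spread between 3 libraries (biological coefficient of variation 6.38%), which also exceeded counting noise between all replicate pairs. Against counting noise, chi-square per degree of freedom was 4.08 to 5.06 in control pairs, 4.81 to 10.2 in PRGL493 pairs and 8.9 to 34.5 in knockdown pairs. The fit shares its estimate of spread over the groups, so its p-values do not reflect this difference.

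All 10 members and ACSL4 are named, with up to 4 called genes of each pathway list by smallest adjusted p, and the 3 genes nearest to each member that changed by at least 1 on the log2 scale. The members and lists were chosen with earlier results of these data known. A gene so named in 1 comparison is not always given in the others, where it may also have been called. Alternatives were other scalings, DESeq2 1.42.0, other filters, only the groups compared, a replicate block, and each library left out.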

Additional observations from a re-analysis of the deposited data

How the results depend on the processing

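Directions and calls of NFKBIZ and TNFAIP3 against control, and of NFKB2 in knockdown against control, held in all 16 alternatives, as did the calls of NFKB1, RELA, RELB, NFKBIA and NFKBIE with PRGL493. Of 10 members, 5 were called in knockdown against control, and 3 when only the 6 libraries compared were fitted. With a library left out 3 to 6 were called, and the lowest, 3, came without control replicate 3. All genes called were 4250 in the main fit and 3628 with those 6 libraries. With a library left out they were 3074 to 4770, lowest also without control replicate 3. For PRGL493 against control, fitting only the 6 libraries compared called more, 9 members against 8 and 7214 genes against 5909. The cause of these shifts was not tested. With a library left out, 7 to 9 members were called with PRGL493, beside 4769 to 7132 of all genes. In knockdown against PRGL493 the ranges were 5 to 8 members and 5941 to 7303 of all genes. With upper-quartile factors 7 members were called in the last comparison, 6 lower and 1 higher, beside 7152 of all genes, 2976 lower and 4176 higher. RELB in knockdown, not called, changed sign with a library left out (log2 fold change -0.05 to 0.11), as did ACSL4 with PRGL493 (-0.04 to 0.03, and 0.01 with library totals alone); the cause was not tested. Of all genes called in knockdown 49.0% were higher, against 59.8% with library totals alone and 58.7% with upper-quartile factors; in knockdown against PRGL493 the share was 48.4% and, with upper-quartile factors, 58.4%. No scaling moved the median of all genes by more than 0.1.

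Same-numbered libraries were not treated as paired in the main fit. Their deviations from the group means correlated at 0.11, 0.15 and 0.06 between knockdown and control and at -0.08 to -0.02 in the other pairs. Of 9 libraries, 6 correlated best with a library of another group that has their own number. The labels state no pairing, and these correlations do not settle it. With a replicate block 4, 8 and 8 members were called in knockdown, with PRGL493 and between them, against 5, 8 and 7 without it. The block ended the call of NFKB1 in knockdown (adjusted p = 0.073) and brought that of BIRC3 in knockdown against PRGL493 (adjusted p = 0.036). All genes called were then 3879, 5635 and 6857, and other pathway genes 43, 54 and 58.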
